A study of Mus musculus with 167 samples.

Results

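The miR-10 and miR-196 genes lie inside the mammalian Hox clusters, and their mature products were followed through 5 tissues of irradiated and sham-irradiated mice. The members were the 6 rows mmu-miR-10a-5p, mmu-miR-10a-3p, mmu-miR-10b-5p, mmu-miR-10b-3p, mmu-miR-196a-5p and mmu-miR-196b-5p, out of 1915 mature microRNA (miRNA) rows in each count table. They were chosen by their values across tissue, strain and irradiation in these same libraries, so those contrasts are described here with their errors and without printed p-values. Where calls by an adjusted p threshold are given for the members on those contrasts, they are descriptions and not tests.

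Whole thorax lung irradiation (WTLI) delivered X-rays to the chest of each mouse while lead shielded its other parts. C3Hf/Sed/Kam (C3H) mice were sampled in month 4 and C57Bl/6 (C57) mice in month 6, and each strain had sham controls. The 35 animals gave libraries of whole lung, heart and brain and of 2 blood fractions, leukocytes (WBC) and erythrocytes (RBC). Lung, heart, brain and RBC each had 8 sham and 7 irradiated C3H libraries and 15 sham and 5 irradiated C57 libraries, while WBC had 5, 6, 11 and 5. Strain and month cannot be told apart. All C3H mice were female, as were 7 of the 15 sham C57 mice (4 of 11 in WBC) and 1 of the 5 irradiated C57 mice, so sex was unbalanced in the C57 and strain comparisons. The labels do not say that the animals of a group were treated on separate occasions, so the errors measure the spread between these animals.

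A miRNA is a short RNA that pairs with messenger RNAs, mainly through its seed (bases 2 to 8), and lowers their translation and stability. The miR-10 genes sit near the Hox paralogs of group 4 and the miR-196 genes near those of groups 9 and 10, and several Hox messages are known targets of miR-196. In the adult, miR-10 is a common miRNA of vessels, lung and kidney, and miR-196b is known from blood precursor cells.

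The mature sequences are shown because the members form near-identical pairs that a read counter must separate by a base in the middle. They are given 5′ to 3′ from RefSeq (GRCm38.p6), which held all 6 members, with the seed in capitals.
miR-10a-5p: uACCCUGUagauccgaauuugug
miR-10b-5p: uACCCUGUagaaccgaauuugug
miR-10a-3p: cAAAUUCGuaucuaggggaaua
miR-10b-3p: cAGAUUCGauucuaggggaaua
miR-196a-5p: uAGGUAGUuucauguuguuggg
miR-196b-5p: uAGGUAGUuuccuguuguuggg
MiR-10a-5p and miR-10b-5p shared their seed with each other and with no other of the 1679 mature mouse miRNAs in that table, and they differed at 1 of 23 bases (U12A, the miR-10a base first, counted from the 5′ end). MiR-196a-5p and miR-196b-5p likewise had a seed found in no other entry and differed at 1 of 22 bases (A12C). The 3p arms of miR-10a and miR-10b differed at 3 of 22 bases (A3G, U9A and A10U), of which the first lies in the seed. Any shift between the 5p arms of miR-10 is therefore a shift between transcripts with the same seed.

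In GRCm38 with the GENCODE M21 annotation, Mir10b (chr2:74726070-74726137, plus strand) lay within introns of Hoxd3 and Hoxd4 transcripts and overlapped no exon of either gene. Mir10a (chr11:96317165-96317274, plus strand) lay between genes, 993 bases upstream of Hoxb4. MiR-196a-5p is encoded by both Mir196a-1 (chr11:96265164-96265265, plus strand), 6192 bases upstream of Hoxb9 and Mir196a-2 (chr15:102973350-102973434, plus strand), in an intron of Hoxc5. Its reads cannot be assigned to either gene. Mir196b (chr6:52230081-52230165, minus strand) lay within Hoxa9, where 2 of 3 spanning transcripts had an exon over it.

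Levels are given as RPM, reads per 1000000 reads of a library's total count, which ranged from 1794995 to 7865102. The limit that a count of 0 allows (3 counts) was 0.381 to 1.67 RPM, and this limit, like all intervals on pooled counts below, covers counting error only. The neuronal and cardiac marker lists separated the solid tissues as labelled: the 4 neuronal miRNAs summed to 111122 to 159406 RPM in sham brain and at most 1036 RPM in sham heart and lung, and the 4 cardiac muscle miRNAs to at least 216176 RPM in sham heart and at most 7697 RPM in sham lung. Other lists were less specific. The 5 epithelial miRNAs summed to 12588 to 37452 RPM in sham lung but also to 172 to 41037 RPM in sham brain, and the 2 skeletal muscle miRNAs to 76.4 to 2733 RPM in sham brain and 14.3 to 33.4 RPM in sham heart. In heart, irradiated C3H replicate 3 stood apart from the rest with a cardiac sum of 50690.1 RPM, and sham C3H replicate 3 had the highest leukocyte sum at 10253 RPM. The blood fractions were not separated by their markers. In sham libraries, 4 erythrocyte miRNAs summed to 23204 to 106907 RPM in WBC and 31039 to 106323 RPM in RBC, and 5 leukocyte miRNAs to 15266 to 33448 RPM in WBC and 17656 to 45244 RPM in RBC. Fewer cells of a type and less RNA per cell cannot be told apart in any of these tissues.

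MiR-10a-5p was a lung miRNA in these animals. In the 23 sham lungs its level had a median of 2084 RPM, with the lowest at 1012 and the highest at 3166. Sham hearts followed with a median of 150.2 RPM (76.3 to 256), and no heart reached the level of any lung. The 16 sham WBC libraries had a median of 62.1 RPM (26.7 to 129), sham RBC 28.9 RPM (15.4 to 65.9) and sham brain 18.9 RPM (4.58 to 56.0). As mean ± SD, heart had 155 ± 48.6 (n = 23), WBC 68.9 ± 28.2 (n = 16), RBC 32.4 ± 14.1 (n = 23) and brain 23.3 ± 14.8 RPM (n = 23). The ranges of neighbours below lung overlapped, and the gap between means was larger than either SD for heart and WBC and for WBC and RBC, but smaller than either SD for RBC and brain. The passenger arm miR-10a-3p followed its partner at a far lower level, with a median of 8.09 RPM in sham lung, 0.368 RPM in sham heart and 0 RPM in sham brain, WBC and RBC.

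MiR-10b-5p had another order. Sham heart had a median of 49.1 RPM (26.0 to 90.1), sham lung 31.1 RPM (18.4 to 58.7) and sham brain 22.0 RPM (4.28 to 46.5), and each of these ranges overlapped the next. The means were 55.4 ± 18.9, 31.7 ± 11.8 and 22.2 ± 10.8 RPM (SD, n = 23 each), so that heart and lung differed by more than either SD and lung and brain by less. The blood fractions stood below all of them. In sham WBC the median was 0.327 RPM and in sham RBC it was 0 RPM, and over all 35 RBC libraries 14 reads of miR-10b-5p were counted beside 4068 of miR-10a-5p.

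**Figure D1:**
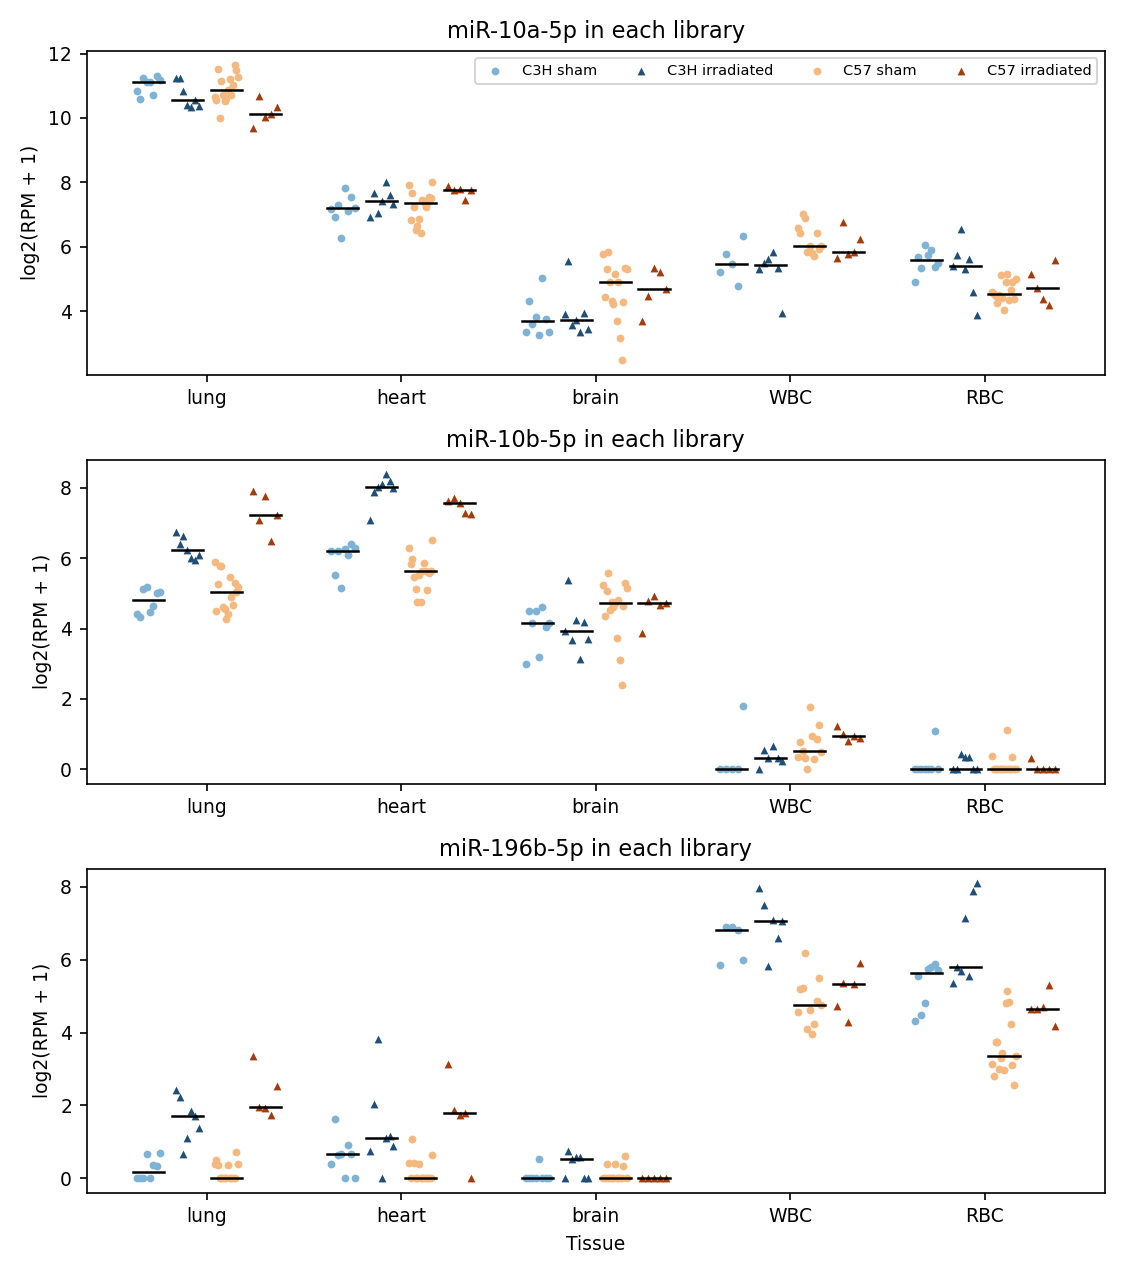
Each point is a library, placed by tissue on the x axis and by log2(RPM + 1) on the y axis for miR-10a-5p, miR-10b-5p and miR-196b-5p. Circles are sham, triangles irradiated, blue C3H and orange C57 animals, and black bars are group medians. MiR-10a-5p was highest in lung, miR-10b-5p was near 0 in both blood fractions, and miR-196b-5p had its highest medians in the blood fractions.

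The share of miR-10b-5p among the reads of the 2 sister arms shows this without any scaling to the library total, since both counts come from the same library. In sham lungs it had a median of 1.29% in C3H and 1.40% in C57 animals. In sham hearts the medians were 31.4% and 23.4%, and in sham brains 54.1% and 48.3%. Lung was therefore almost wholly miR-10a, heart mixed and brain evenly divided. In the pooled WBC libraries the share was 0.990% (95% exact binomial interval 0.769 to 1.25), and in the pooled RBC libraries 0.343% (0.188 to 0.575). How the authors' pipeline assigned reads with a mismatch was not stated. The RBC share bounds from above how often a miR-10a-5p read was counted as miR-10b-5p in those libraries, and the pooled sham lung share was 1.48% (1.42 to 1.54).

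The comparison of irradiated with sham animals addressed which miRNAs change in tissues late after WTLI. MiR-10b-5p was higher in lung and heart of both strains, without overlap between the groups, and by 2.94 to 4.86 times in mean RPM. MiR-10a-5p had a lower median in irradiated lungs and a higher one in irradiated hearts, with overlap. Calls required a limma adjusted p under 0.05 together with a change of 1.17 or more on the log2 scale of normalised RPM. The filter on low counts left 4 members in lung (miR-10a-5p, miR-10a-3p, miR-10b-5p and miR-196b-5p) and 2 in heart (miR-10a-5p and miR-10b-5p). In lung, 2 of these 4 (miR-10b-5p and miR-196b-5p) were called higher in both strains, beside 9.71% of all 350 tested miRNAs called in C3H and 6.00% in C57. For heart, 1 of 2 (miR-10b-5p) was called higher in both strains, beside 6.73% of 312 miRNAs in C3H and 0.962% in C57. Since the members were chosen on these contrasts, nothing is read from their counts against that background. How many of all tested miRNAs also separated without overlap was not counted, so a lack of overlap, here or below, is a description. MiR-196b-5p, moreover, passed the count filter in lung through the irradiated libraries, since sham lungs held 0 to 2 of its reads each, so its call is conditioned on the group in which it was high.

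MiR-10b-5p in lung was 18.9 to 35.0 RPM (median 27.5) in the 8 sham C3H mice and 60.8 to 106 RPM (median 74.2) in the 7 irradiated C3H mice. In C57 lung the 15 sham mice had 18.4 to 58.7 RPM (median 32.0), and the 5 irradiated mice had 88.6, 135, 149.9, 216 and 242 RPM. Every irradiated lung was above every sham lung of its strain. On the log2 scale of normalised RPM, the change was 1.19 ± 0.23 (SE, 95% interval 0.72 to 1.65) in C3H and 2.11 ± 0.21 (1.68 to 2.54) in C57. The C3H value stood just above the limit of 1.17, and it fell below that limit without any of 5 libraries: sham replicates 1, 2 and 6 and irradiated replicates 1 and 3 gave 1.09 to 1.16 when left out in turn. It was 1.56 in C3H animals with the letter A in their titles and 0.93 in those with the letter B, a label whose meaning was not given. In C57 the corresponding values were 2.18 and 2.07, and the fit of C57 males alone gave 2.09.

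In heart, miR-10b-5p was 34.3 to 83.5 RPM (median 72.9) in sham C3H mice and 134 to 333 RPM (median 259.6) in irradiated C3H mice. Sham C57 hearts had 26.0 to 90.1 RPM (median 48.4), and the 5 irradiated C57 hearts had 153, 156, 191, 196 and 211 RPM. Here too the groups did not overlap in either strain. The change was 2.14 ± 0.26 (1.61 to 2.67) in C3H and 1.89 ± 0.26 (1.35 to 2.43) in C57, which ranked 6 and 1 among the 312 miRNAs by size of increase. In lung the ranks were 23 and 3 of 350. Without irradiated C3H replicate 3, the heart that stood apart by its cardiac markers, the C3H value was 2.09.

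**Figure D2:**
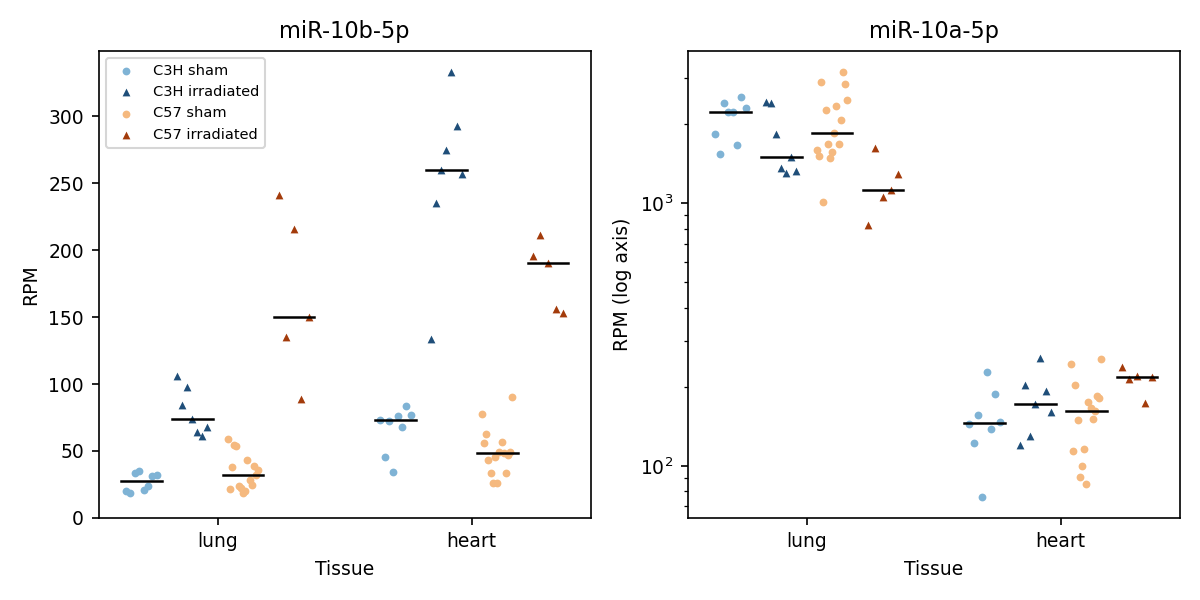
RPM of miR-10b-5p (left, linear axis from 0) and miR-10a-5p (right, log axis) in each lung and heart library, with circles for sham, triangles for irradiated, blue for C3H, orange for C57 and black bars for medians. Irradiated libraries of miR-10b-5p sit above all sham libraries in the 4 comparisons, while those of miR-10a-5p overlap sham in each.

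MiR-10a-5p was lower in irradiated lungs by its medians. Sham C57 lungs had 1012 to 3166 RPM (median 1857), and the irradiated C57 lungs had 828, 1053, 1121, 1295 and 1627 RPM. All 5 were under the sham median, and 1 was under the whole sham range. The log2 change was -0.88 ± 0.22 (-1.32 to -0.44) in C57. Of these 5 mice 4 were male, and sham males had lower values (1012 to 2904 RPM, median 1583) than sham females (1689 to 3166 RPM, median 2358). Among males alone the irradiated lungs had 828, 1053, 1121 and 1627 RPM, the last of them above the male sham median, and the change was -0.59. In C3H lung, 1541 to 2532 RPM (median 2232) in sham stood beside 1305 to 2425 RPM (median 1502) in irradiated mice, a change of -0.46 ± 0.21 (-0.89 to -0.02), with 4 of 7 under all sham lungs. That C3H value was 0.04 in animals of letter A and -0.86 in those of letter B. In heart the change was 0.23 ± 0.25 (-0.28 to 0.73) in C3H and 0.49 ± 0.25 (-0.02 to 1.00) in C57, and all 5 irradiated C57 hearts (173, 215, 218, 219 and 237 RPM) lay above the sham median of 162 RPM and within the sham range. Sham males had 85.2 to 243 RPM (median 115), and among C57 males alone the change in heart was 0.88 and was not called.

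In reads, the difference in miR-10a-5p in lung was larger than that in miR-10b-5p. Mean miR-10a-5p in C57 lung was 2035 RPM in sham and 1185 RPM in irradiated animals, while mean miR-10b-5p was 34.2 and 166 RPM. In C3H lung the means were 2097 and 1738 RPM for miR-10a-5p and 27.0 and 79.3 RPM for miR-10b-5p. By letter, the C3H means of miR-10a-5p in sham and irradiated lungs were 2007 and 2224 RPM in letter A and 2187 and 1374 RPM in letter B. The C57 means mix the sexes, which were unbalanced between the groups. The lung minus heart difference of the change, from a joint fit of both tissues, was -1.56 ± 0.37 (-2.31 to -0.82) for miR-10a-5p in C57, with 3.21% of 374 miRNAs called in that contrast, and -0.84 ± 0.37 (-1.59 to -0.09) in C3H, where 5.35% were called. For miR-10b-5p this difference was 0.02 ± 0.35 (-0.67 to 0.71) in C57 and -1.07 ± 0.36 (-1.78 to -0.36) in C3H. Of the tested members, miR-10a-5p in C57 was the only one called here, on values that also chose it.

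The share of miR-10b-5p among the sister reads rose in every irradiated lung and heart above the whole sham range of its strain. In C3H lung it went from 1.27% ± 0.195 (SD, n = 8) to 4.46% ± 0.656 (SD, n = 7), and in C57 lung from 1.81% ± 1.11 (SD, n = 15) to 12.99% ± 6.62 (SD, n = 5). The C57 irradiated lungs stood at 7.32, 7.68, 10.4, 17.0 and 22.6%, and the highest sham C57 lung at 5.09%. In C3H heart the share went from 30.8% ± 3.22 (SD, n = 8) to 59.0% ± 4.92 (SD, n = 7), so that miR-10b-5p became the more abundant arm. In C57 heart it went from 23.9% ± 3.802 (SD, n = 15) to 46.0% ± 3.05 (SD, n = 5). As log2 ratios of miR-10b-5p to miR-10a-5p, the changes were 1.86 ± 0.12 (SE) and 3.04 ± 0.41 for lung and 1.70 ± 0.14 and 1.45 ± 0.11 for heart, in C3H and C57 respectively.

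**Figure D3:**
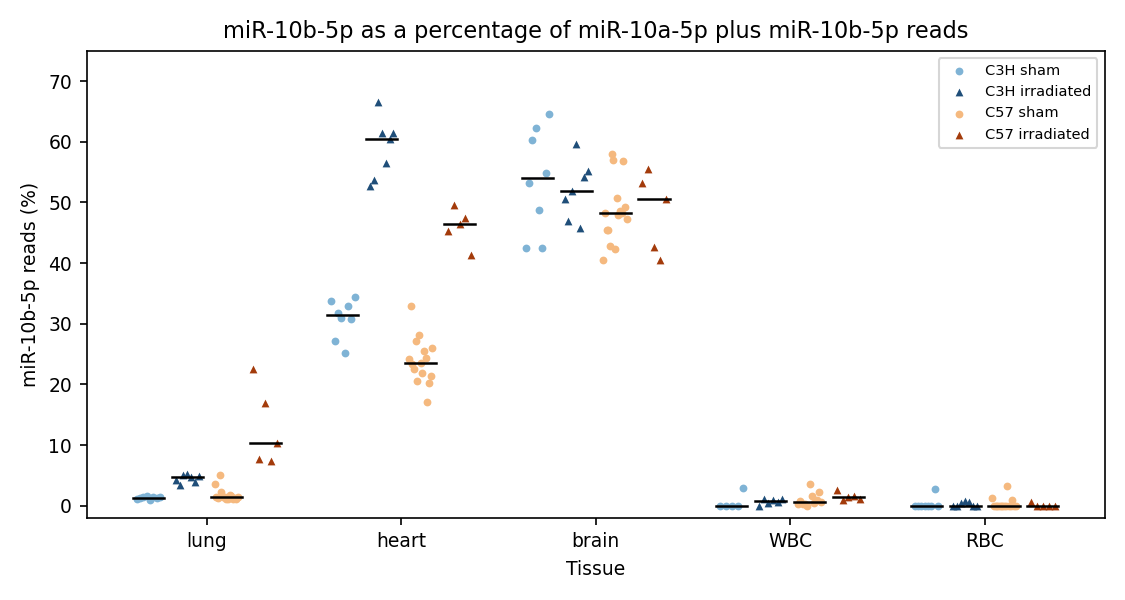
Reads of miR-10b-5p as a percentage of miR-10a-5p plus miR-10b-5p reads in each library (y axis) by tissue (x axis). Circles are sham, triangles irradiated, blue C3H, orange C57 and black bars medians. The median in irradiated lungs was 4.67% in C3H and 10.4% in C57, and in irradiated hearts 60.4% in C3H and 46.5% in C57, while brain stayed between 40.5 and 64.6% in every library.

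The passenger arms, which are cut from the same hairpins, had the sign of their 5p partners in lung, at counts near the limit of detection for miR-10b-3p. MiR-10a-3p in lung changed by -0.79 ± 0.28 (-1.37 to -0.22) in C3H and by -0.58 ± 0.25 (-1.08 to -0.08) in C57, with sham medians of 5.91 and 9.89 RPM and irradiated medians of 4.43 and 7.79 RPM, and the groups overlapped in both strains. MiR-10b-3p did not pass the count filter in any tissue. Its reads in lung summed to 12 over 15 sham C57 mice and 40 over 5 irradiated ones, a ratio of RPM of 7.88 (95% exact interval of the pooled counts 4.05 to 16.5), and to 1 and 10 in C3H, a ratio of 11.6 (1.65 to 503). In heart the sums were 9 and 17 in C57, a ratio of 6.10 (2.57 to 15.5), and 15 and 28 in C3H, a ratio of 1.78 (0.917 to 3.58). Single libraries held at most 12 reads, and sham and irradiated groups overlapped in all 4 comparisons.

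MiR-196b-5p was near absent from sham lung and appeared in the irradiated lungs. The 15 sham C57 lungs had 0 to 0.634 RPM (7 reads in all), and the 5 irradiated ones had 2.31, 2.80, 2.89, 4.80 and 9.21 RPM (95 reads in all). In C3H the 8 sham lungs had 0 to 0.601 RPM (6 reads) and the 7 irradiated ones 0.588 to 4.40 RPM (58 reads). The groups did not overlap in C57, and 6 of 7 irradiated C3H lungs were above all sham lungs. The pooled ratio was 32.1 (15.0 to 81.9) in C57 and 11.2 (4.85 to 31.8) in C3H. After quantile normalisation the log2 change was 3.18 ± 0.39 (2.39 to 3.96) and 1.58 ± 0.49 (0.59 to 2.57) in C57 and C3H, while edgeR gave 4.59 and 3.02 on the counts. The cause of that difference was not tested. Without irradiated replicate 1, whose 17 reads were the most of any C3H lung, the C3H value was 1.22. In C3H lung miR-196b-5p was not called in letter A alone, in letter B alone or in the fit of 1 strain at a time. With a filter that kept any miRNA with a read in some library, the changes were 4.11 in C57 and 2.52 in C3H.

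MiR-196a-5p had still fewer reads in lung and did not pass the filter. Sham C57 lungs had 2 reads in all and irradiated ones 35, with 0.655, 0.770, 1.40, 1.78 and 3.60 RPM in the 5 irradiated mice and at most 0.291 RPM in sham. The pooled ratio was 41.4 (10.6 to 355) in C57, and 10.4 (3.21 to 53.7) in C3H from 3 and 27 reads. In heart the miR-196 arms were less regular. MiR-196b-5p summed to 8 reads in sham and 48 in irradiated C57 hearts, where values of 0, 2.31, 2.45, 2.65 and 7.74 RPM put 4 of 5 above all sham hearts. In C3H hearts it summed to 17 and 82 reads, of which 56 came from irradiated replicate 3, and 2 of 7 were above all sham hearts. MiR-196a-5p had no read in 8 sham C3H hearts and 28 in the irradiated ones, at least 8.88-fold higher than 3 counts over the sham group allow, and 16 of these were from that same replicate, the heart with the low cardiac sum. In C57 hearts miR-196a-5p had 8 and 4 reads, a ratio of 1.62 (0.356 to 6.03).

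**Figure D4:**
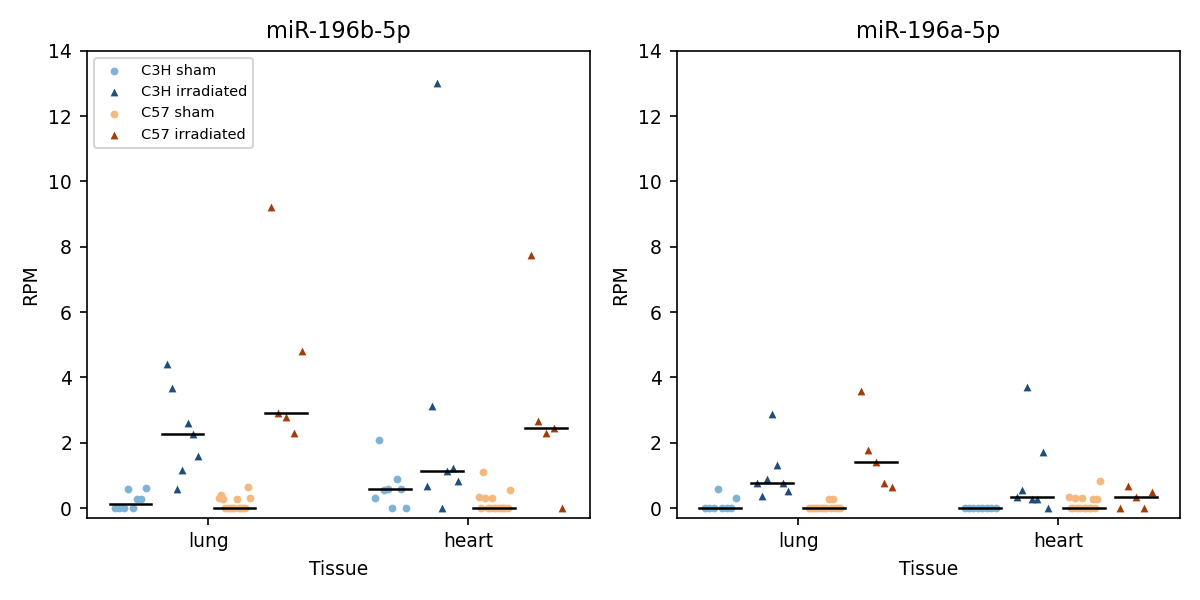
RPM of miR-196b-5p (left) and miR-196a-5p (right) in each lung and heart library on the same linear axis, with circles for sham, triangles for irradiated, blue for C3H, orange for C57 and black bars for medians. Sham libraries lie at or below 2.08 RPM in both panels, and the highest irradiated libraries are a C3H heart at 13.02 RPM and a C57 lung at 9.21 RPM of miR-196b-5p.

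Markers of other cells moved in part of these comparisons. The erythrocyte list (4 of 4 miRNAs detected) summed to 181 to 1134 RPM in sham and 289 to 2823 RPM in irradiated C3H lung, with a higher median for 4 of 4 markers, but to 106 to 2121 RPM and 81.0 to 471 RPM in C57 lung, with a higher median for 0 of 4. The leukocyte list (5 of 5 detected) summed to 3397 to 4826 RPM and 2552 to 7019 RPM in sham and irradiated C3H lung and to 2393 to 9748 RPM and 5564 to 6829 RPM in C57 lung, with 4 of 5 medians higher in both strains. In heart, mean erythrocyte sums of irradiated over sham animals had a ratio of 0.524 in C3H and 0.839 in C57, and leukocyte sums 0.531 and 1.25. Without sham replicate 3, the heart with 10253 RPM, the C3H leukocyte ratio was 0.862. The cardiac list had a heart ratio of 0.765 in C3H, with 0 of 4 medians higher and 3 of 7 irradiated hearts below all sham hearts, and 0.873 in C57. Epithelial sums in heart had ratios of 0.489 and 0.662, and skeletal muscle sums 0.679 and 0.871, with 4 of 7 irradiated C3H hearts below all sham hearts in the latter list. Mesenchymal sums had ratios of 1.09 and 0.943 in C3H and C57 lung and 0.917 and 1.06 in heart, and endothelial sums 0.800, 0.891, 1.12 and 1.08. For the endothelial list, 6 of 7 irradiated C3H lungs and 0 of 5 irradiated C57 lungs were below all sham lungs. In heart, 4 of 7 irradiated C3H and 2 of 5 irradiated C57 libraries were above all sham hearts in that list. Other lists also moved in lung. The neuronal list had a ratio of 0.979 in C3H and 2.06 in C57 lung, with 4 of 4 medians higher in both strains. MiR-122-5p, the liver marker, had a ratio of 2.78 in C3H and 2.56 in C57, at no more than 15.5 RPM. The cardiac list had a ratio of 0.699 in C3H lung, with 6 of 7 irradiated lungs below all sham lungs, and 0.976 in C57 lung. The 2 skeletal muscle miRNAs had medians of 1.57 and 4.81 RPM in sham and irradiated C3H lung and 1.80 and 5.39 RPM in C57 lung. C57 irradiated replicate 1 and sham replicates 1 and 4 stood apart in that list at 1395, 1123 and 119 RPM. The change of miR-10b-5p in C57 lung was 1.94, 2.15 and 2.18 and that of miR-196b-5p 2.88, 3.20 and 3.18 without each of these in turn. The part of these cells in the changes of miR-10b-5p and miR-196b-5p was not tested. MiR-10b-5p itself stood at or below 2.47 RPM in every blood library, against 60.8 RPM or more in every irradiated lung and heart. MiR-196b-5p was more abundant in blood, at 14.6 to 249 RPM in WBC and 4.94 to 273 RPM in RBC, than in irradiated lung, where it was at most 9.21 RPM.

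Brain lay behind the shield, and no change of the miR-10 sister arms was called there. MiR-10b-5p changed by 0.06 ± 0.40 (-0.75 to 0.88) in C3H and by 0.15 ± 0.39 (-0.63 to 0.94) in C57, and miR-10a-5p by 0.18 ± 0.45 (-0.73 to 1.09) and 0.07 ± 0.42 (-0.79 to 0.94). The irradiated C57 brains had 13.6, 24.6, 25.6, 26.3 and 29.5 RPM of miR-10b-5p, within the sham range of 4.28 to 46.5 RPM. Marker sums of irradiated over sham brains had a ratio of 0.106 for the epithelial list in C57 (0 of 5 medians higher) and 0.683 in C3H (3 of 7 below all sham, 5 of 5 medians higher). The erythrocyte list had a ratio of 0.523 in C3H brain, with 3 of 7 below all sham, and the cardiac list 0.762 in C57 brain. The part of these cells in the brain values was not tested. The intervals leave room for changes of up to 0.94 for miR-10b-5p in C57 brain. Of 433 miRNAs, limma called 0 (0%) in either strain, with 9 in C3H and 53 in C57 at an unadjusted p under 0.05, and neither edgeR nor DESeq2 called a member in brain.

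In blood, miR-10a-5p and miR-196b-5p were the members that passed the count filter. Their order depended on the strain. In sham C57 animals miR-10a-5p had the higher median in WBC (64.7 against 26.1 RPM) and in RBC (22.4 against 9.29 RPM), while in sham C3H animals miR-196b-5p had the higher one in WBC (113 against 43.0 RPM) and the medians in RBC were close (48.5 against 47.5 RPM). In sham WBC miR-196b-5p was at 57.1, 63.2, 113, 118 and 119 RPM in the 5 C3H mice and at 14.6 to 71.2 RPM (median 26.1) in the 11 C57 mice. In sham RBC it was at 19.0 to 57.7 RPM (median 48.5) in C3H and 4.94 to 34.1 RPM (median 9.29) in C57. C3H medians were thus higher in both fractions, with overlap between the strains in each. All C3H mice were female, and sham C57 females alone had medians of 27.2 RPM in WBC (17.8 to 43.8, 4 mice), below all C3H mice, and 17.98 RPM in RBC (7 mice). MiR-196a-5p was a minor share of the miR-196 reads in blood, 2.28% (95% exact binomial interval 1.97 to 2.62) of the pooled WBC reads and 1.01% (0.754 to 1.33) of the pooled RBC reads, but 28.8% (23.0 to 35.0) in lung. In brain it was the larger arm, with 42 reads beside 11 of miR-196b-5p over all 35 libraries. A pair of WBC libraries stood apart, C57 sham replicate 10 and C57 irradiated replicate 5, with 49 and 43 reads of miR-196a-5p beside 127 and 213 of miR-196b-5p, while the other C57 WBC libraries had at most 5.

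After irradiation miR-196b-5p in RBC had 39.8 to 273 RPM (median 55.1) in C3H and 17.0, 24.0, 24.2, 25.1 and 38.7 RPM in C57. The change was 1.68 ± 0.49 (0.68 to 2.68) in C3H and 1.08 ± 0.54 (-0.02 to 2.19) in C57, and neither was called by limma. The 4 irradiated C57 males had 24.0 to 38.7 RPM in RBC, above all 8 sham males (5.96 to 12.3 RPM), and the irradiated female, at 17.0 RPM, lay within the range of the 7 sham females (4.94 to 34.1 RPM). This split by sex was made after the data were seen, and over both sexes 1 of the 5 irradiated libraries was above all 15 sham libraries. In the fit of C57 males alone 0 members were called in RBC. The 3 irradiated C3H libraries above all sham libraries, at 142, 235 and 273 RPM, all carried the letter B. Marker levels were spread more widely in the same irradiated C3H RBC libraries. The erythrocyte list summed to 28566 to 85713 RPM against 46232 to 74660 RPM in sham and the leukocyte list to 8203 to 44771 RPM against 19776 to 36641 RPM, each with 3 of 7 irradiated libraries below all sham libraries. The epithelial list had a ratio of 0.729 with 4 of 7 below, and the mesenchymal list 0.519 with 2 of 7 below. The part of these cells in the change of miR-196b-5p was not tested. In WBC the change was 0.81 ± 0.41 (-0.03 to 1.66) in C3H and 0.42 ± 0.39 (-0.39 to 1.23) in C57. In C3H WBC the erythrocyte list had a ratio of 0.773, with 3 of 6 irradiated libraries below all sham libraries, the leukocyte list 0.850 and the epithelial list 0.775, each with 2 of 6 below, and the mesenchymal list 0.393, with 0 of 5 medians higher. The part of these cells was not tested. MiR-10a-5p changed by 0.11 ± 0.21 and 0.03 ± 0.19 in C3H and C57 WBC and by 0.10 ± 0.21 and 0.19 ± 0.21 in RBC. Of 291 miRNAs in WBC and 229 in RBC, limma called 0 (0%) in either strain, with 20 and 12 in WBC and 43 and 14 in RBC at an unadjusted p under 0.05 in C3H and C57. In C3H RBC both edgeR and DESeq2 called 1 member, on a contrast that also chose it. Calls by these 2 tools over all 229 miRNAs were not counted, so nothing is read from that call.

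**Figure D5:**
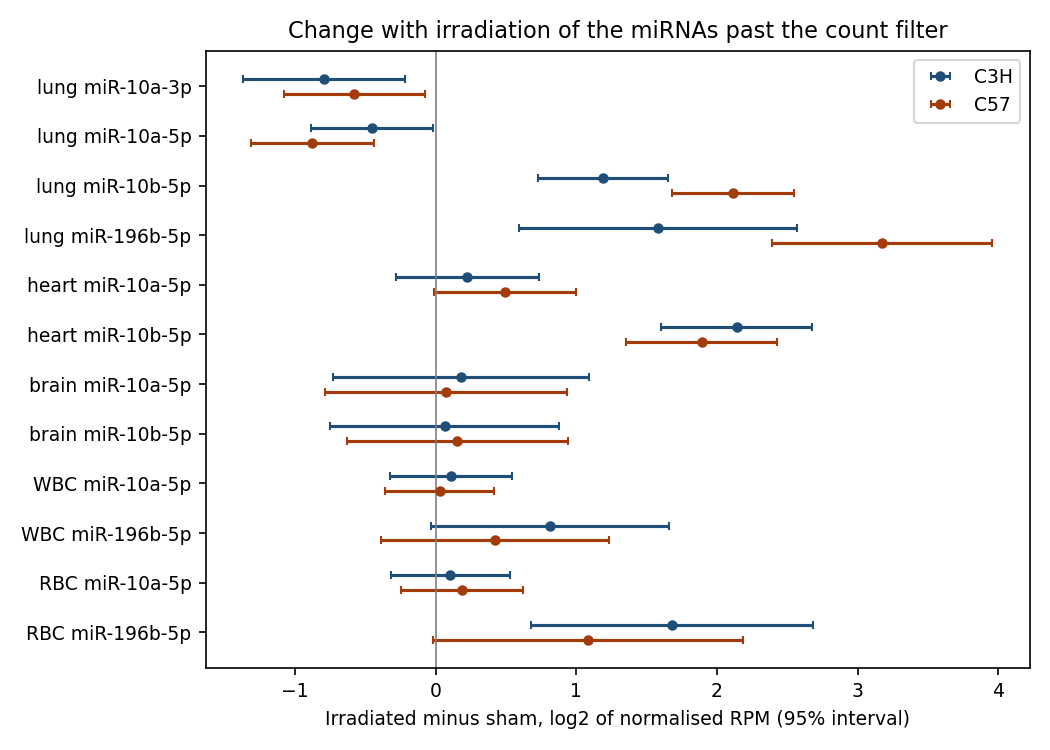
Log2 change with irradiation (x axis, points) with 95% intervals (bars) of each member that passed the count filter, by tissue and miRNA (y axis), in C3H (blue) and C57 (orange). The intervals for miR-10b-5p in lung and heart and for miR-196b-5p in lung lie above 0, those for miR-10a-5p and miR-10a-3p in lung below 0, and those in brain span 0.

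Whether the strains differed in these changes was estimated as the C3H minus the C57 change. For miR-10b-5p it was -0.92 ± 0.31 (-1.56 to -0.29) in lung and 0.25 ± 0.37 (-0.51 to 1.00) in heart. For miR-196b-5p in lung it was -1.60 ± 0.62 (-2.86 to -0.34), and for miR-10a-5p in lung 0.42 ± 0.30 (-0.20 to 1.04). These values are descriptions in which strain and month cannot be told apart and sex was unbalanced.

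Relatives by sequence gave no call. The miR-99, miR-100 and miR-125 families resemble miR-10 in sequence and are encoded outside the Hox clusters. Of their 11 arms, 10 were tested in lung and 9 in heart, and 0 were called by limma in either direction in either strain in any tissue. At an adjusted p under 0.05 without the minimum fold, miR-99b-3p (0.65 ± 0.24) and miR-125b-1-3p (0.68 ± 0.26) were higher in C3H lung, and no relative passed in C57 lung or in heart. MiR-125b-5p, the most abundant of them in lung, changed by 0.43 ± 0.35 in C3H lung and -0.30 ± 0.35 in C57 lung. The median change of the 10 relatives was 0.30 in C3H lung and -0.30 in C57 lung, beside -0.08 and -0.05 over all 350 miRNAs. The other Hox-cluster arms, the 3p arms of the miR-196 genes and both arms of miR-615, were too few in reads for a test in any tissue, with miR-615-3p at 5 to 14 reads summed over all libraries of a tissue and miR-615-5p at 0 reads.

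The miRNAs whose levels over the 20 group means were most like those of each member were taken from 398 miRNAs with at least 10 RPM in some group. Nearest to miR-10b-5p were miR-152-5p (Pearson r = 0.970), miR-143-5p (r = 0.964) and miR-27b-5p (r = 0.962). Nearest to miR-10a-5p were miR-224-5p (r = 0.954), miR-542-3p (r = 0.940) and miR-450b-3p (r = 0.923). Nearest to miR-196b-5p were miR-25-3p (r = 0.945), miR-17-5p (r = 0.942) and miR-18a-5p (r = 0.938). Between miR-10a-5p and miR-10b-5p r was 0.560. Group means share tissues and library totals, so these values mostly restate the order of the tissues and are descriptions.

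Sex was not used to choose the members and was tested in sham C57 animals. MiR-10a-5p had a higher level in female hearts, at 150.2 to 256 RPM (median 175) in 7 females and 85.2 to 243 RPM (median 115) in 8 males. All 7 females were above the male median and the groups overlapped. The female minus male difference was 0.80 ± 0.22 on the log2 scale (95% interval 0.36 to 1.24, adjusted p = 0.00525 with limma), under the minimum fold, so that it was not called. The adjusted p was 0.0116 with edgeR and 0.0633 with voom scaled to library size alone. MiR-10b-5p in heart differed by 0.57 ± 0.26 (0.04 to 1.10, adjusted p = 0.0770 with limma), and miR-10a-5p in lung by 0.58 ± 0.20 (0.18 to 0.98, adjusted p = 0.0561). The remaining tested members, in lung, brain, WBC and RBC, had adjusted p-values of 0.119 or more with limma. Brain had the other sign for both sister arms, -0.85 ± 0.41 (-1.68 to -0.03) for miR-10a-5p and -0.72 ± 0.37 (-1.48 to 0.04) for miR-10b-5p. The sexes differed by the same call rule in 2.29% of miRNAs for lung, 8.33% for heart, 4.16% for brain, 7.90% for WBC and 7.42% for RBC. By limma, edgeR or voom with library size alone, 0 members were called. Among the members, 2 had an unadjusted p under 0.05 in heart, 1 in lung and 1 in brain, beside 165 of all 312 miRNAs in heart, 106 of 350 in lung and 165 of 433 in brain.

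Whether the sister arms vary together between animals was tested within groups of at least 6, with 12 relations and adjusted p-values over them. In sham hearts miR-10a-5p and miR-10b-5p rose and fell together. Pearson's r was 0.735 (permutation p = 0.00082, adjusted p = 0.00982) and Spearman's rho 0.775 (permutation p = 0.0011, adjusted p = 0.0132) in 15 C57 animals, and r was 0.742 without the 2 farthest animals. In 8 C3H animals r was 0.894 (exact permutation p = 0.00164, adjusted p = 0.00982) and rho 0.905 (exact permutation p = 0.00456, adjusted p = 0.0274), and r was 0.941 without the 2 farthest animals. On log2(RPM + 1) the C3H rho was 0.833 with an adjusted p = 0.0923 (exact permutation test), past the threshold no longer, while r was 0.880 (adjusted p = 0.0289, exact permutation test). Within the C57 animals r was 0.347 in 7 females (exact permutation p = 0.465), 0.695 in 8 males (exact permutation p = 0.0698), 0.507 in 8 of letter A (exact permutation p = 0.196) and 0.827 in 7 of letter B (exact permutation p = 0.0127), so the relation was positive in each split but not past the threshold in 3 of them. The 4 animals of each letter were too few in C3H. Pairs of other miRNAs were not compared in these hearts, so the relation is not shown to be particular to the sister arms.

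In irradiated C3H hearts r was 0.768 (exact permutation p = 0.0484, adjusted p = 0.102) and rho 0.721 (exact permutation p = 0.0770), and r fell to 0.141 without the 2 farthest of 7 animals, so that it rested on those animals. In lung the same relation had r = 0.018 (permutation p = 0.952) and rho = 0.0997 (permutation p = 0.720) in 15 sham C57 animals, and r was 0.678 without the 2 farthest. In 8 sham C3H lungs r was 0.591 (exact permutation p = 0.132, adjusted p = 0.199) and rho 0.610 (exact permutation p = 0.121), with r at 0.403 without the 2 farthest. In 7 irradiated C3H lungs r was 0.818 (exact permutation p = 0.0238, adjusted p = 0.0952) and rho 0.873 (exact permutation p = 0.0143, adjusted p = 0.0571), with r at 0.847 without the 2 farthest. In lung no group therefore passed the correction.

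Lung and heart of the same animal were not related past the threshold for either arm. For miR-10b-5p r between the tissues was 0.302 in sham C57, 0.045 in sham C3H and -0.819 in irradiated C3H animals (adjusted p = 0.364, 0.952 and 0.102, permutation tests). The matching rho values were 0.227, 0.310 and -0.685 (adjusted p = 0.492, 0.504 and 0.171, permutation tests). Without the 2 farthest animals r was 0.369, -0.287 and -0.385. For miR-10a-5p r was 0.487, 0.360 and -0.751 (adjusted p = 0.122, 0.457 and 0.102, permutation tests) and rho 0.456, 0.512 and -0.745 (adjusted p = 0.171, 0.280 and 0.171, permutation tests). Without the 2 farthest animals these r values were 0.722, 0.596 and -0.923. MiR-10b-3p did not pass the filter, and its planned relations with miR-10b-5p were not computed.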

How the data were processed

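The authors prepared small RNA libraries with the QIAseq kit, trimmed the reads by length and quality, and aligned them to mouse miRNAs of build mm10 in BaseSpace, rejecting runs with few miRNA reads. The deposited values are raw read counts per mature miRNA and library, 1 table for each of 5 tissues, with no normalisation. Use of molecular identifiers and the handling of mismatched or multiply mapped reads are not given in the sources used here. Groups came from the labels, and the members and lists were chosen with earlier results of these data known.

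RPM were computed from library totals. For tests, counts were filtered with filterByExpr (edgeR 4.0.16, minimum count 10, total 15), transformed by voom with quantile normalisation and fitted in R 4.3.3 with limma 3.58.1, 1 model per tissue with 4 groups, with Benjamini-Hochberg adjustment over all tested miRNAs. Calls needed an adjusted p under 0.05 and a fold of 2.25. Sex was fitted with 6 groups, and lung with heart jointly with 8. Ratios of the miR-10 arms used a pseudocount of 0.5 counts, and marker and likeness values log2(RPM + 1) or RPM sums. Correlations used exact permutations, or 100000 permutations from 10 animals (SciPy 1.17.1). Pooled counts have exact 95% intervals. The named miRNAs are the members, the relatives that passed a test or were most abundant, and the 3 miRNAs nearest each member. The fits were tested on simulated counts. No pair of libraries of the same group agreed within sampling noise (smallest chi-square per degree of freedom 15.5 over 746 pairs), and pairs across groups were not compared.

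The same animals gave lung and heart, as the labels show. Their deviations correlated with a median r of 0.0979 over 35 animals, so the animal as a block was an alternative. Other alternatives were voom with TMM or library size, edgeR, DESeq2 1.42.0, other filters, the letter, C57 males, 1 strain at a time and leaving out each library. Values within sex and letter and marker ratios without each library were added after the data were seen.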

Additional observations from a re-analysis of the deposited data

Results flagged for a closer look

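A library far from the others was looked for in 34 combinations of a member and a group of 4 to 10 libraries, and chance gives about 1 in 20 of them. It was found in 4 combinations from 3 groups, 2 of them in the same library, so they are not independent. In C3H brain, irradiated replicate 2 was highest for miR-10a-5p at 46.4 RPM, with the next at 14.6 RPM, and for miR-10b-5p at 41.0 RPM, with the next at 18.1 RPM. The same library had 9 reads of miR-196a-5p, and the other irradiated C3H brains had at most 1. In C3H brain sham replicate 6 was highest for miR-10a-5p at 31.8 RPM, with the next at 18.9 RPM. In C3H lung irradiated replicate 3 was highest for miR-10a-3p at 8.83 RPM, with the next at 5.18 RPM.

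The change of miR-10a-5p with irradiation differed between lung and heart of C57 mice by -1.56 on the log2 scale in the joint fit (lung minus heart), beside 0.02 for miR-10b-5p. The tissues were among the values on which the members were chosen, so this is a description.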

How the results depend on the processing

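The change of miR-10b-5p kept its direction in lung and heart of both strains under all alternatives run. In C3H lung it was 1.56 with voom scaled to library size alone, where the median over all miRNAs was itself 0.27, and also 1.56 in letter A alone. Over fits that each left out 1 library it ranged from 1.09 to 1.26 in C3H lung, 1.94 to 2.26 in C57 lung, 1.95 to 2.30 in C3H heart and 1.78 to 1.97 in C57 heart. Of the 2 members called in C3H lung, miR-10b-5p was the 1 called with at least 10 counts in every library, in letter A alone and in the fit of 1 strain at a time. The count was 0 in letter B alone, and 0 to 2 with a library left out. In C57 lung the count was 4 with at least 1 count in any library, 1 with at least 10 counts in every library, 1 in letter B alone and 1 in the fit of 1 strain at a time. In heart, where 1 was called, the count was 2 in C3H and 3 in C57 with at least 1 count in any library, and 2 in C57 letter A alone. In C3H RBC, where 0 were called, 1 was called by edgeR, by DESeq2 and, over left-out libraries, 0 to 1. The cause was not tested. Calls over all miRNAs were not counted under the alternatives, and the members were chosen on these contrasts. These counts of members are therefore descriptions.

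With the animal as a replicate block in the joint fit of lung and heart, the lung minus heart difference of miR-10a-5p in C57 was -1.56 and that of miR-10b-5p in C3H -1.07, and the block changed no call. RPM without the 5 most abundant miRNAs or scaled by TMM left miR-10a-5p highest in lung. The weak relation of miR-10b-5p between lung and heart in sham C3H reversed to r = -0.059 on log2(RPM + 1), where the rho of the sister arms in sham C3H heart also lost its call (adjusted p = 0.0923, exact permutation test). Counts of members near 0 reads limit all statements on the miR-196 arms and miR-10b-3p outside blood. Of the values recomputed with a library left out, 371 kept their direction and call or moved by less than the spread between replicates and 6 did not, and under the other alternatives 280 did and 38 did not, beside the reversal. MiR-196b-5p in lung gave no value with at least 10 counts in every library, which its low counts do not meet.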
